A study of Homo sapiens with 6 samples.

Results

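The cytosolic ribosomal protein genes were followed in SH-SY5Y cells, a human neuroblastoma line, after knockdown of PSF (SFPQ), an RNA-binding protein of nuclear paraspeckles. The genes were chosen by name from the protein-coding rows of the expression table: RPL, RPS and RPLP symbols followed by a number, and RPSA, without the RPS6K kinases. The rule found 82 genes among 21301 rows, 50 of the large (60S) and 32 of the small (40S) subunit. Of these, 77 are main copies and 5 are paralogs (RPL7L1, RPL22L1, RPL26L1, RPL39L and RPS27L), and all 82 passed the filter on low counts. The study sequenced these cells to compare gene regulation by PSF with that by its partner G3BP2, whose knockdown is not analysed here. Cells received either siControl or siPSF, a single siRNA that the methods number #2, at 10 nM for 72 h, and 3 libraries were sequenced per group. The methods call them biological triplicates, the labels do not say whether they came from separate cultures, and every value below comes from 1 cell line and 1 siRNA.

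A cytosolic ribosome joins a small subunit, which reads the mRNA, to a large subunit, which forms the peptide bond. Each subunit holds 1 copy of most of its proteins, so their supply has to be balanced, and unused ribosomal proteins are degraded in the nucleus. Most vertebrate ribosomal protein mRNAs, and those of several translation factors, start with a cytosine followed by an unbroken run of pyrimidines, the terminal oligopyrimidine (TOP) motif, through which mTOR signalling and the protein LARP1 govern their translation and stability. In neurons, ribosomal protein mRNAs are also carried into axons and dendrites.

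The libraries held between 101540520 and 132420931 counts, and the lowest count of a ribosomal protein gene in any library was 2668, so counting error was small beside the spread between libraries. Levels are given as CPM, read counts scaled to a common library size, after edgeR's TMM scaling, rises and falls of a gene are log2 fold changes of siPSF over siControl, and a gene was called where the quasi-likelihood test of edgeR, adjusted over 19694 genes by Benjamini-Hochberg, gave an adjusted p under 0.05. The targeted gene, SFPQ, stood at 372, 356 and 401 CPM with siControl and 209, 193 and 165 CPM with siPSF. All siPSF libraries lay below all siControl libraries, with a log2 fold change of -0.99 (SE 0.1; edgeR, adjusted p = 9.5e-05). Of 12 markers of adrenergic neuroblastoma, 11 reached 1 CPM on average and TH, the enzyme that makes the precursor of dopamine, did not. Their summed level was 5580 to 6440 CPM under siControl and 4930 to 6170 CPM under siPSF. The sums hide changes of single markers. ALK stood at 104, 108 and 110 CPM with siControl and 42.8, 42.5 and 40.4 CPM with siPSF. DBH and TH were also lower without overlap. GATA3 was higher without overlap, with 409, 405 and 386 against 467, 479 and 533 CPM, and the other markers of this list overlapped between the groups. Of 18 markers of other cell types, 5 had a row, and these summed to 10.1 to 10.5 and 9.48 to 12.8 CPM.

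To show the motif that most of these genes share, 30 bases around the annotated transcription start are printed first for the 11 ribosomal protein genes with a start sequence whose change was at least that of RPL14, in falling order of change. Of these, 8 carry the motif at the annotated start and RPL15, RPL4 and RPL6 do not. The RPL4 sequence holds a pyrimidine run a few bases after its annotated start, so a start without the motif does not show that the mRNA lacks it. Then follow genes of the paralog pairs, as far as a sequence was used here, and some non-ribosomal TOP genes. The sequences are RefSeq's, build GRCh38.p14, on the strand of the gene. Each begins 10 bases before the start, and capitals mark the pyrimidine run at the start. Genes printed without capitals have no such run there.
RPS19, chr19:41860245-41860274, + strand: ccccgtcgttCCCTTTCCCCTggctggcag
RPL11, chr1:23691796-23691825, + strand: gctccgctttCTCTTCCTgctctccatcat
RPL15, chr3:23916535-23916564, + strand: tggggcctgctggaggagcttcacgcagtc
RPS6, chr9:19380217-19380246, - strand: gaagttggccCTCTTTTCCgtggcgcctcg
RPL28, chr19:55385922-55385951, + strand: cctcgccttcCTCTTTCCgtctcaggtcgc
RPL4, chr15:66504836-66504865, - strand: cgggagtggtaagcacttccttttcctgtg
RPL6, chr12:112409266-112409295, - strand: gacggcgcgtgcactgtgttcctggtcctg
RPS25, chr11:119018324-119018353, - strand: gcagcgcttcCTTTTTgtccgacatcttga
RPL27A, chr11:8682782-8682811, + strand: gaaggccttcCTTTTTCgtctgggctgcca
RPL36A, chrX:101391001-101391030, + strand: ctcgcggtttCTTTCTTTCCgcgccgatag
RPL14, chr3:40457329-40457358, + strand: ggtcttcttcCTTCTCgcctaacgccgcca
RPL22, chr1:6199576-6199605, - strand: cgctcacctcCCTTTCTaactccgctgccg
RPL22L1, chr3:170870176-170870205, - strand: ccgtagcttcCTCTCTgctctcgcggccga
RPL26, chr17:8383174-8383203, - strand: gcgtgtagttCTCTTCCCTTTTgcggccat
RPL26L1, chr5:172958719-172958748, + strand: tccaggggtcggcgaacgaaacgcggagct
RPL7L1, chr6:42879606-42879635, + strand: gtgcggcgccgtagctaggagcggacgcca
RPL39, chrX:119791611-119791640, - strand: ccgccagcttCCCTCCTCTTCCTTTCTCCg
RPS27, chr1:153990752-153990781, + strand: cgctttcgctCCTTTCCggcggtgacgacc
RPS27L, chr15:63157458-63157487, - strand: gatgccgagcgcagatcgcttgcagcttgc
EIF4B, chr12:53006446-53006475, + strand: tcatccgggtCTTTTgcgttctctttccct
EEF2, chr19:3985444-3985473, - strand: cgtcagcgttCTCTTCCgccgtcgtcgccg
NAP1L1, chr12:76084666-76084695, - strand: gctcttgggtCTTTTTTagcgccatctgct

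Ribosomal protein genes took a larger part of the reads after PSF knockdown. Their summed counts made up 7.80%, 7.49% and 6.49% of the siControl libraries and 10.11%, 10.46% and 11.04% of the siPSF libraries. The groups did not overlap, and the mean share was 7.26% ± 0.685 (SD, n = 3) against 10.54% ± 0.47 (SD, n = 3), a ratio of 1.45. In bulk RNA, a change in which cells are present and a change in RNA per cell cannot be told apart. The third siControl library had the lowest share of its group and the third siPSF library the highest. Without siControl replicate 3 the ratio was 1.38. On the deposited FPKM values, which are divided by exon length, the share was 18.12%, 17.43% and 16.16% under siControl and 22.16%, 22.56% and 23.69% under siPSF, a ratio of 1.32.

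**Figure D1:**
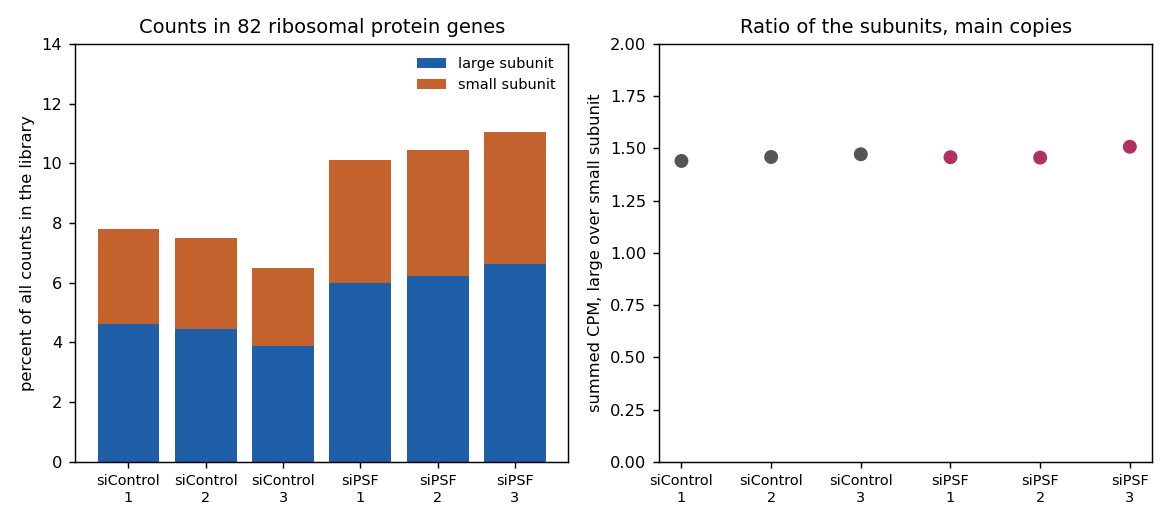
Left, percent of all counts in a library that fell on the 82 ribosomal protein genes, as stacked bars for the large (blue) and small (orange) subunit; right, summed CPM of large over small subunit main copies, 1 point per library. The shares of the siPSF libraries (10.11% to 11.04%) lie above those of the siControl libraries (6.49% to 7.80%), while the subunit ratio stays between 1.44 and 1.51.

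Gene by gene, the rise was broad and moderate. Of the 82 genes, 79 were called higher and 0 lower, a share of 96.3%, where 6.65% of all genes tested were called higher and 8.27% lower. At an unadjusted p under 0.05 (edgeR), and with DESeq2's Wald test or limma on FPKM, 0 were lower as well, and limma on rescaled FPKM called 1 lower, RPL39L. The 3 genes not called higher were the paralogs RPL7L1, RPL26L1 and RPL39L. The median log2 fold change was 0.63, or 1.54-fold, with the middle part of the genes (the interquartile range) between 0.52 and 0.70, beside a median of 0.01 over all genes tested. For 78 of the 82 genes every siPSF library lay above every siControl library, which 16.7% of all genes tested also showed. The 77 main copies were all called higher (edgeR, largest adjusted p = 0.019), from 0.38 for RPL35 to 0.95 for RPS19, and 44 genes rose by more than 1.5-fold. No gene reached a log2 fold change of 1.

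Ribosomal protein mRNAs are abundant and short, so they were also set beside other genes of those kinds. Among 2105 other protein-coding genes that averaged 100 CPM or more, 6.41% were called higher and the median log2 fold change was -0.0043. Among the 207 of these whose exonic length, worked out from counts and FPKM, was under 1500 bases, 12.6% were called higher and the median was 0.09. Within the 77 main copies, Spearman's rho of the log2 fold change was 0.35 with exonic length, -0.11 with mean CPM and -0.40 with mean FPKM. These values describe genes of the same 6 libraries, and FPKM and length share the length itself. The lengths are not measured lengths of the mRNAs in these cells, and among main copies they reached 4995 bases for RPL27A and 7799 for RPL14.

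**Figure D2:**
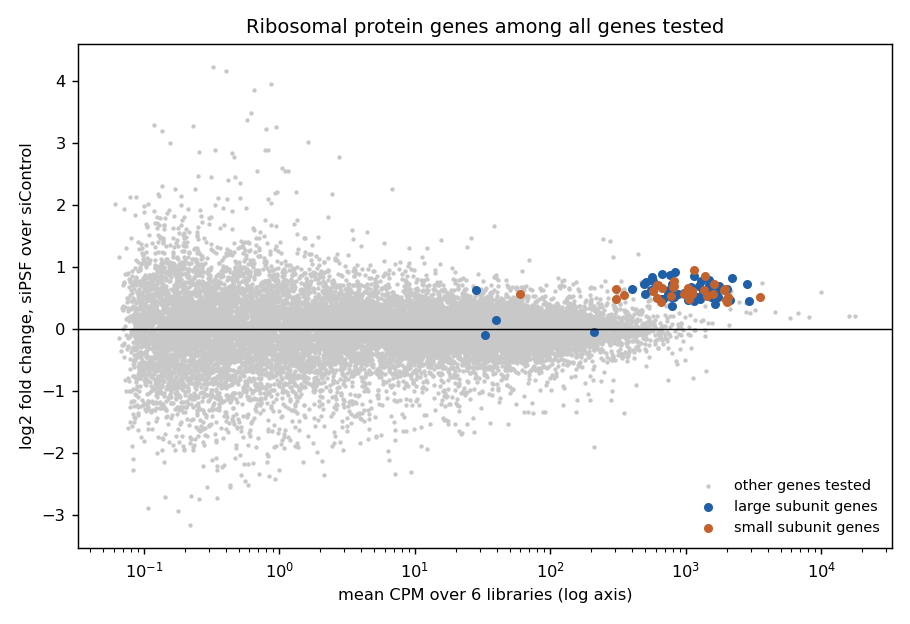
Log2 fold change, siPSF over siControl, against mean CPM over the 6 libraries (log axis) for every gene tested, with large subunit genes in blue and small subunit genes in orange. The 77 main copies form a band from 0.38 to 0.95, and the 4 paralogs of the large subunit and RPS27L lie at lower levels.

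The libraries behind this pattern were not alike. The third siControl library was the lowest of its group for 80 of the 82 genes, and the third siPSF library was the highest of its group for 65. With siControl replicate 3 left out the median log2 fold change was 0.52, and with siPSF replicate 3 left out it was 0.58. In both cases the 77 main copies were called higher. Over all 6 fits that left out 1 library, between 77 and 79 of the 82 genes were called higher.

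Large and small subunit genes both rose, and the balance between them differed by less than the spread between libraries. The 46 main copies of the large subunit had a median log2 fold change of 0.63 and the 31 of the small subunit one of 0.62, and every one was called higher. Large subunit genes rose from 4.61%, 4.45% and 3.87% of counts to 6.005%, 6.21% and 6.64%. Small subunit genes rose from 3.19%, 3.04% and 2.62% to 4.11%, 4.25% and 4.39%. The ratio of summed CPM of large over small subunit main copies was 1.44, 1.46 and 1.47 under siControl and 1.46, 1.46 and 1.51 under siPSF, and the groups overlapped. Their difference on the log2 scale was 0.02, and it stayed between -0.00023 and 0.03 in the 6 fits without 1 library.

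**Figure D3:**
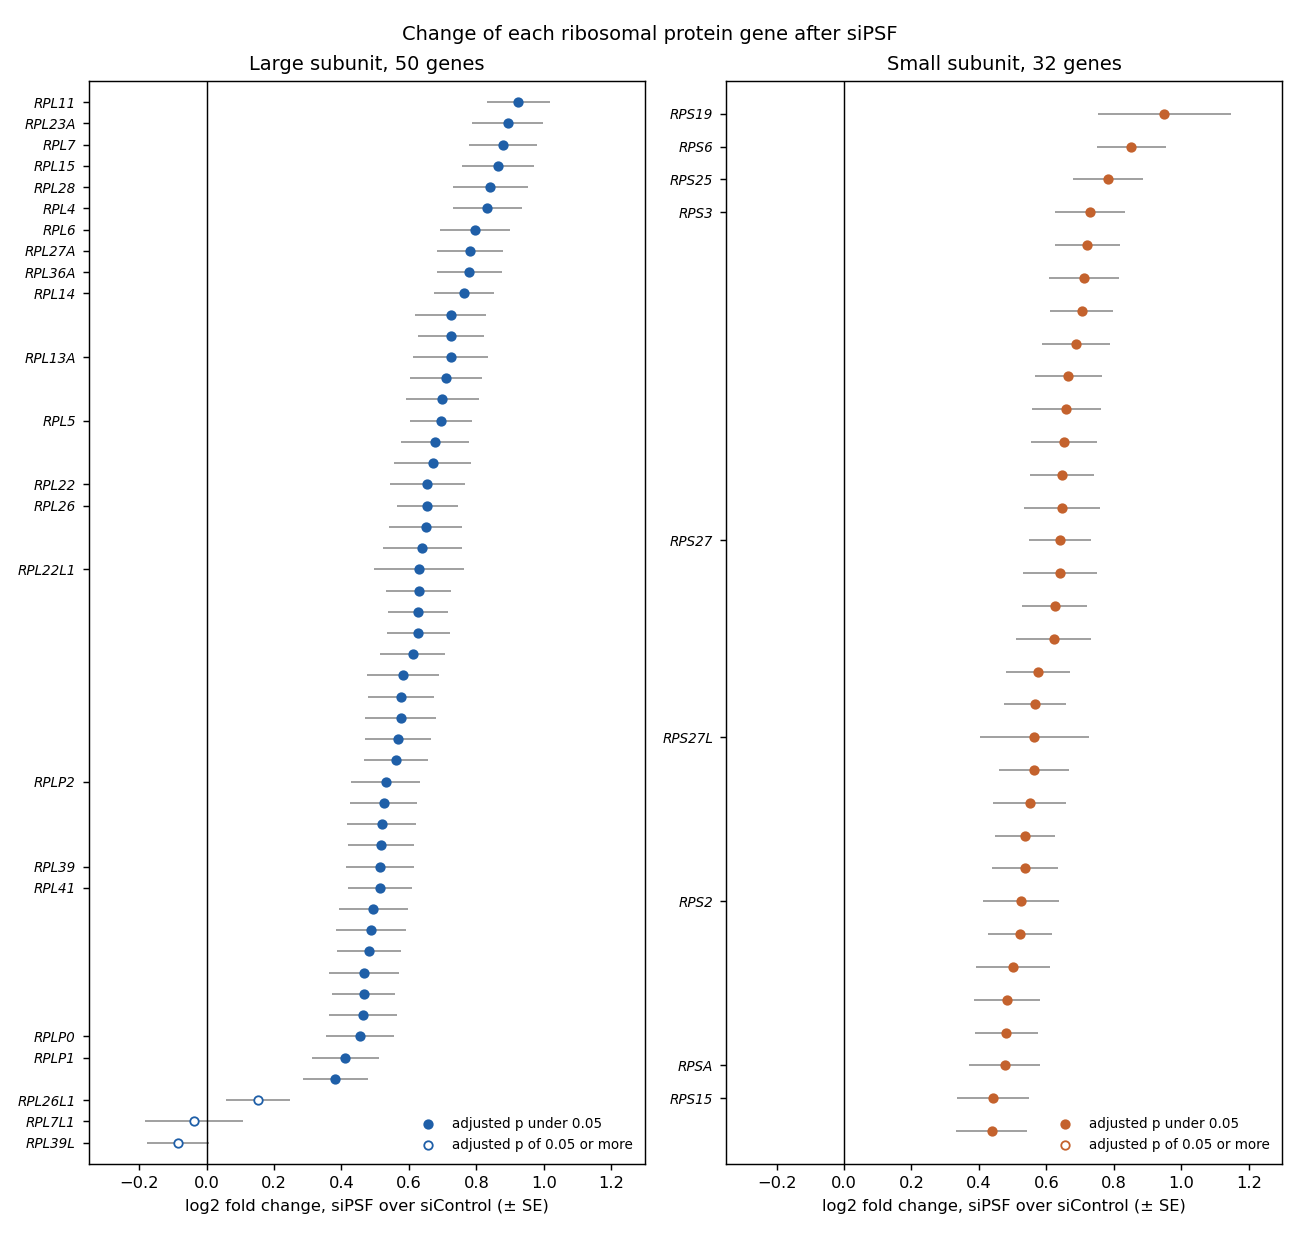
Log2 fold change with standard error for each of the 82 genes, ordered by size and labelled for some, large subunit in blue and small subunit in orange. The 77 main copies lie between 0.38 and 0.95, and RPL39L, RPL7L1 and RPL26L1 lie near 0.

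The 5S ribonucleoprotein, made of 5S rRNA with RPL5 and RPL11, joins the large subunit during its assembly and binds MDM2, the ligase that degrades p53, when it is left free. RPL11 stood at 608, 591 and 513 CPM with siControl and 1027, 1066 and 1157 CPM with siPSF. The siPSF values were all above the siControl values, and the log2 fold change of 0.92 (SE 0.094; edgeR, adjusted p = 1.1e-04) had the smallest p of the 82 genes. RPL5 stood at 1009.9, 958 and 869.9 CPM with siControl and 1491, 1467.5 and 1636 CPM with siPSF, again without overlap, with a log2 fold change of 0.70 (SE 0.091; edgeR, adjusted p = 5.0e-04). MDM2 itself had 166, 153 and 170.2 CPM under siControl and 226, 206 and 149 CPM under siPSF, with overlapping groups (log2 fold change 0.25; edgeR, adjusted p = 0.22). The lowest of the 6 libraries was siPSF replicate 3, and without it MDM2 was called higher (log2 fold change 0.40; edgeR, adjusted p = 0.0064).

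Genes of the peptide exit tunnel and its rim spread over most of the range. All 8 were called higher, with a median of 0.62. RPL23A, a docking point for the signal recognition particle at the tunnel exit, stood at 508, 491 and 405 CPM with siControl and 819, 833 and 957 CPM with siPSF, and RPL4, which lines the tunnel, at 1654, 1670.0 and 1406 CPM with siControl and 2569.9, 2756.5 and 3099 CPM with siPSF. In both genes the third siPSF library was highest and the groups lay apart, with log2 fold changes of 0.89 and 0.83 (edgeR, adjusted p = 2.9e-04 and 3.5e-04). RPL35, at the rim, had the lowest change of all main copies, with 730.5, 735 and 603 CPM under siControl and 864, 913 and 919 CPM under siPSF. Its groups did not overlap either, the log2 fold change was 0.38 (SE 0.096; edgeR, adjusted p = 0.019), and the call was lost when siPSF replicate 2 was left out (edgeR, adjusted p = 0.052). RPL39, RPL31, RPL17, RPL19 and RPL26 lay between 0.51 and 0.65.

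The acidic stalk of the large subunit, which recruits elongation factors, had a median log2 fold change of 0.49. Its base RPLP0 stood at 2551, 2666.5 and 2147 CPM with siControl and 3143, 3456 and 3499.9 CPM with siPSF, and RPLP1 at 1468, 1530.5 and 1220.2 CPM with siControl and 1769.5, 1914 and 1929 CPM with siPSF. For both, siControl replicate 3 was the lowest library and siPSF replicate 3 the highest. The log2 fold changes were 0.46 for RPLP0, 0.41 for RPLP1, 0.53 for RPLP2 and 0.58 for RPL12, which joins the stalk to the ribosome, and all 4 were called higher. RPL3, RPL8 and RPL10, whose tips reach towards the peptidyl transferase centre, had log2 fold changes of 0.70, 0.47 and 0.53, and all 3 were called higher. Differences between these groups of genes were not tested.

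Among the other proteins of the large subunit body, RPL7 stood at 593, 533 and 497 CPM with siControl and 947, 931 and 1105 CPM with siPSF. RPL15 stood at 917, 806 and 714 CPM with siControl and 1363, 1452 and 1617.5 CPM with siPSF, and RPL28 at 438, 445 and 334 CPM with siControl and 703, 745 and 732 CPM with siPSF. In each the groups lay apart, with log2 fold changes of 0.88, 0.86 and 0.84 (edgeR, adjusted p = 2.4e-04, 3.6e-04 and 4.9e-04). RPL6, RPL27A, RPL36A and RPL14 followed at 0.80, 0.78, 0.78 and 0.76 (edgeR, adjusted p = 5.0e-04, 3.7e-04, 3.5e-04 and 2.8e-04). RPL13A, which besides its ribosomal place can silence inflammatory mRNAs when released, rose by 0.72 (edgeR, adjusted p = 0.0014). RPL41, the shortest ribosomal protein, had the highest mean level per length of the large subunit, 2380.5 FPKM, followed by RPLP0 at 2357 FPKM. RPL41 rose by 0.51 (edgeR, adjusted p = 0.0038).

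In the small subunit, RPS6 is the protein that S6 kinases phosphorylate downstream of mTOR. It stood at 1108, 983 and 862 CPM with siControl and 1729, 1715 and 1887 CPM with siPSF. Every siPSF library lay above every siControl library, and the log2 fold change was 0.85 (SE 0.1; edgeR, adjusted p = 3.3e-04). RPS19, needed for the maturation of 18S rRNA and mutated in Diamond-Blackfan anaemia, stood at 1118, 696 and 541 CPM with siControl and 1480.3, 1617 and 1453 CPM with siPSF. Its first siControl library was far above the others of its group, though still below every siPSF library. The log2 fold change of 0.95 was the largest of the 82 genes but had the largest error as well (SE 0.2; edgeR, adjusted p = 0.0076), and it moved between 0.74 and 1.29 when single libraries were left out. RPS25, which some viral internal ribosome entry sites need, rose by 0.78 (edgeR, adjusted p = 5.0e-04).

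At the mRNA entry channel, RPS3 stood at 1329, 1282 and 1052 CPM with siControl and 1872, 2081 and 2116 CPM with siPSF, and RPS2 at 3227, 3043 and 2448 CPM with siControl and 3848, 4195 and 4506 CPM with siPSF. Both were called higher, with log2 fold changes of 0.73 and 0.53 (edgeR, adjusted p = 8.5e-04 and 0.0088), and neither showed overlap. Near the mRNA exit, RPS14, RPS26 and RPS28 were all called higher within a narrow range of 0.55 to 0.66. RPS15 was among the small subunit genes with the lowest changes, 0.44 (edgeR, adjusted p = 0.017). RPSA, which also serves as a laminin receptor, rose by 0.48 (edgeR, adjusted p = 0.011). Per length, RPS27 and RPS2 had the highest mean levels of the small subunit, 3404 (RPS27) and 3382 (RPS2) FPKM, while RPL14 had the lowest of all main copies, 64.2 FPKM. That low value depends on the exonic length worked out for RPL14, 7799 bases. In CPM, RPL14 averaged 374 with siControl and 636 with siPSF, above RPS28 with 237 and 370.

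Of the genes mutated in Diamond-Blackfan anaemia, a bone marrow failure caused by the loss of 1 working copy of a ribosomal protein gene, 8 were followed (RPL5, RPL11, RPL35A, RPS7, RPS10, RPS19, RPS24 and RPS26). All 8 were called higher, with a median log2 fold change of 0.68 and a range from 0.54 for RPS7 to 0.95 for RPS19. This median lay close to that of all 77 main copies, 0.63. The 8 genes were picked after their values were seen, so their median and range describe only these 8.

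Some of these counts are shared with near-identical copies. The table held 489 rows named as pseudogenes of the 82 genes, and for 4 genes these rows took more than 10% of the summed counts: RPL9 (16.6%), RPS2 (16.4%), RPL41 (12.9%) and RPL23A (10.9%). How the authors placed reads that fit several copies is not given in the sources used here, so the levels of these 4 genes are uncertain. With each gene summed with its pseudogene rows, 79 of the 82 genes were again called higher, with a median of 0.63. Rows of transcripts that read through from a ribosomal protein gene into its neighbour were low, with 38.5 CPM for RPL17-C18orf32 beside 872 CPM for RPL17, 8.32 beside 576 CPM for RPL36A and 3.89 beside 663 CPM for RPS10.

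The paralogs did not move as 1 group. RPL22L1 and RPS27L were called higher, and RPL7L1, RPL26L1 and RPL39L were not, while their main copies rose. For each pair the CPM of the paralog was taken as a percentage of that of its main copy in each library, and the log2 ratio was compared by an exact permutation test (two-sided), in which 3 libraries against 3 cannot give a p below 0.1. The test was run on 6 pairs, including RPL36AL, which lies outside the name rule. RPL3L and RPL10L were not analysed here. The copies of a pair are alike in sequence, so reads that fit both could have been placed on either.

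RPL7L1, a nucleolar protein of rRNA processing, stood at 237, 192 and 204 CPM with siControl and 235, 229.7 and 152 CPM with siPSF. The groups overlapped, and the third siPSF library was the lowest of all. The log2 fold change was -0.04 (SE 0.14; edgeR, adjusted p = 0.9). Relative to RPL7 it was at 40.0%, 36.0% and 41.1% under siControl and 24.8%, 24.7% and 13.8% under siPSF. The log2 ratio differed by -0.94, without overlap (exact permutation p = 0.1, the smallest possible, adjusted p = 0.2 over the 6 pairs).

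RPL26L1, which differs little from RPL26, stood at 41.2, 37.4 and 34.3 CPM with siControl and 43.5, 40.4 and 41.5 CPM with siPSF, and RPL39L, a paralog known for its expression in the testis, at 33.6, 36.4 and 31.0 CPM with siControl and 31.3, 31.5 and 32.4 CPM with siPSF. In both genes the groups overlapped, with log2 fold changes of 0.15 (SE 0.095) and -0.08 (SE 0.093; edgeR, adjusted p = 0.31 and 0.585). RPL26L1 made up 4.45%, 4.56% and 4.43% of RPL26 under siControl and 3.30%, 3.08% and 3.11% under siPSF. RPL39L made up 4.71%, 4.98% and 5.33% of RPL39 under siControl and 3.44%, 3.28% and 3.17% under siPSF. Both ratios were lower without overlap, by -0.50 and -0.60 on the log2 scale (exact permutation p = 0.1 each, adjusted p = 0.2). RPL26 rose by 0.65 and RPL39 by 0.51 (edgeR, adjusted p = 6.5e-04 and 0.0058).

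RPL22L1, whose level is known to depend on RPL22, stood at 24.4, 20.5 and 21.5 CPM with siControl and 38.8, 36.9 and 27.1 CPM with siPSF. The groups lay apart, though the third siPSF library was lower than the other two. The log2 fold change of 0.63 (SE 0.13; edgeR, adjusted p = 0.0082) was near that of RPL22, 0.66 (edgeR, adjusted p = 0.0022). Without siControl replicate 2 or 3 the call of RPL22L1 was lost (edgeR, adjusted p = 0.054 and 0.050). RPS27L, a target of p53, stood at 53.4, 46.5 and 44.97 CPM with siControl and 82.8, 81.9 and 49.4 CPM with siPSF. The third siPSF library fell inside the siControl range, and the call (log2 fold change 0.56, SE 0.16; edgeR, adjusted p = 0.036) was lost in 4 of the 6 fits without 1 library, with siControl replicate 2 or 3 or siPSF replicate 1 or 2 left out (edgeR, adjusted p from 0.093 to 0.15). RPS27 rose by 0.64 (edgeR, adjusted p = 8.6e-04).

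As a percentage of the main copy, RPL22L1 was at 7.39%, 6.80% and 7.30% under siControl and 8.64%, 8.47% and 4.72% under siPSF, and RPS27L at 4.86%, 4.12% and 4.75% against 5.20%, 4.95% and 2.90%. In both pairs the first and second siPSF libraries lay above the siControl values and the third below them. The log2 ratios differed by -0.03 and -0.12 (exact permutation p = 1 each, adjusted p = 1), and by 0.26 and 0.15 without siPSF replicate 3. RPL36AL, an autosomal copy of the X-linked RPL36A, stood at 15.1, 15.4 and 13.3 CPM with siControl and 25.5, 25.2 and 23.1 CPM with siPSF and rose by 0.75 (edgeR, adjusted p = 5.9e-04). Its ratio to RPL36A differed by -0.03 (exact permutation p = 0.8, adjusted p = 1), with overlapping groups.

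**Figure D4:**
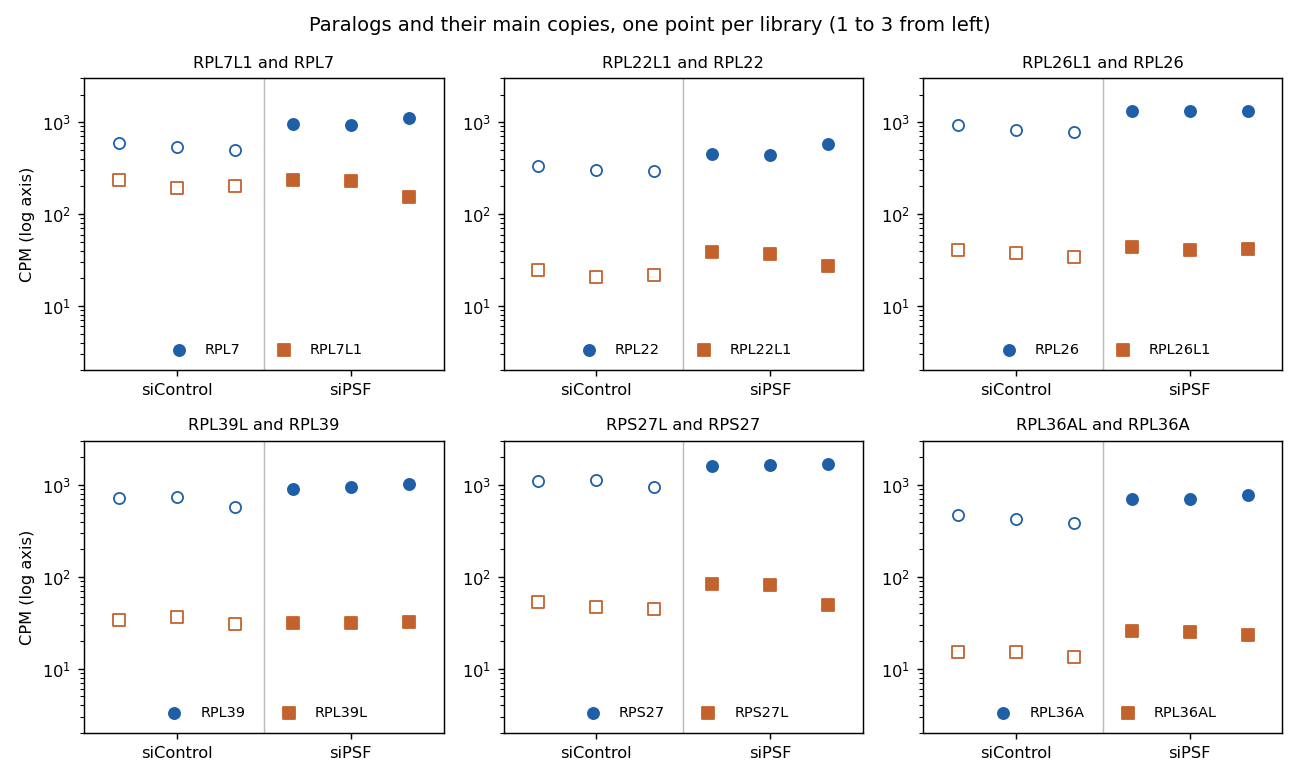
CPM (log axis) of 6 paralogs (orange squares) and their main copies (blue circles) in each library, siControl open and siPSF filled. The main copies are higher in all siPSF libraries, RPL26L1 and RPL39L overlap between the groups, and RPL7L1, RPL22L1 and RPS27L are lowest among the siPSF libraries in the third.

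A TOP motif, read here as a C at a RefSeq start followed by at least 4 further C or T on the gene's strand, was searched in the 66 ribosomal protein genes with a start sequence. It was present in 47 of them (71.2%), in 29 of 41 large and 18 of 25 small subunit genes, and in 6.85% of the 13729 genes tested that had a sequence. The 47 genes with the motif were all called higher, with a median log2 fold change of 0.64. Of the 19 without it 17 were called higher, with a median of 0.57. Of the paralogs, RPL22L1 had the motif and RPL7L1, RPL26L1 and RPS27L did not, as the printed starts show. A match, or the lack of one, describes these letters at an annotated start and is not a measured start site.

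The motif was also counted outside the ribosomal protein genes. Of 1741 other protein-coding genes with at least 100 CPM and a start sequence, 189 had it, and 45 of these (23.8%) were called higher. Of the 1552 without it, 68 (4.38%) were called higher. The medians of the log2 fold change were 0.07 and -0.01. These 189 genes include non-ribosomal TOP mRNAs of the list that follows and ribosomal proteins outside the name rule.

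Other genes of translation that are transcribed as TOP mRNAs were mostly higher too. A list held 20 translation factors, importins and RNA-binding proteins with known TOP mRNAs. Of these, 19 (95.0%) were called higher, beside 6.65% of all genes tested, with a median log2 fold change of 0.57. Some of these calls rested on single libraries. Of the 6 fits without 1 library, IPO7 was called in 2, TPT1 in 3, EIF3E in 4, and IPO5 and EIF3F in 5. Without siControl replicate 2 the calls of EIF3E, IPO5, IPO7 and TPT1 were lost (edgeR, adjusted p from 0.056 to 0.21). The initiation factor EIF4B stood at 240.4, 237 and 251 CPM with siControl and 385, 385 and 481 CPM with siPSF, without overlap, and rose by 0.78 (edgeR, adjusted p = 4.2e-04). The histone chaperone NAP1L1 and the initiation factor subunit EIF3L rose by 0.70 and 0.66 (edgeR, adjusted p = 6.6e-04 and 7.4e-04), and the elongation factor EEF2 by 0.74 (edgeR, adjusted p = 8.3e-04). EIF3A was the gene not called, with 198, 191 and 225 CPM under siControl and 222, 204 and 226 CPM under siPSF and overlapping groups (log2 fold change 0.08; edgeR, adjusted p = 0.57). The 4 ribosomal proteins listed outside the name rule were also called higher, with a median of 0.55. Of these 4, FAU lost its call without siControl replicate 3 or siPSF replicate 2 (edgeR, adjusted p = 0.051 and 0.067). RACK1, a scaffold on the small subunit, rose by 0.61 (edgeR, adjusted p = 0.0015).

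Of the assembly factors, 4.55% of those of the small and 11.1% of those of the large subunit were called higher, beside 6.65% of all genes tested. Most lay slightly above 0. The log2 fold change was positive for 33 of 44 small and 42 of 54 large subunit factors, and for 10153 of all 19694 genes tested. Every siPSF library lay above every siControl library for 13 of 44 small and 17 of 54 large subunit factors. Both shares were larger than that of all genes tested, 16.7%. Of 44 small subunit assembly factors 2 (4.55%) were called higher and 0 lower, with a median of 0.10. These were NOB1, the nuclease that finishes 18S rRNA, with a log2 fold change of 0.53, and the rRNA methyltransferase FBL, with 0.35 (edgeR, adjusted p = 0.0043 and 0.03). Of 54 large subunit assembly factors 6 (11.1%) were called higher and 1 lower, with a median of 0.13. NSA2, a factor of large subunit maturation, stood at 98.8, 78.5 and 92.2 CPM with siControl and 157, 133 and 170.5 CPM with siPSF, without overlap, and rose by 0.77 (edgeR, adjusted p = 8.7e-04). DDX54 and RSL24D1 rose by 0.50 and 0.56 (edgeR, adjusted p = 0.0051 and 0.0094). The 1 gene called lower, named after its value was seen, was MDN1, a large ATPase that strips assembly factors from the pre-60S particle (log2 fold change -0.35; edgeR, adjusted p = 0.016). At an unadjusted p under 0.05 (edgeR) and with DESeq2's Wald test or limma on FPKM, 0 small subunit factors were lower, and limma on rescaled FPKM called 5 lower. The counts of higher genes rested on single libraries: without siControl replicate 2, siControl replicate 3 or siPSF replicate 1 only 1 small subunit factor was called higher, NOB1, and without siPSF replicate 2 the call of FBL was lost as well (edgeR, adjusted p = 0.083) while NOP58 was called (edgeR, adjusted p = 0.038). Without siControl replicate 2 only 2 large subunit factors were called higher, NSA2 and DDX54, and without siPSF replicate 1 MDN1 was not called (edgeR, adjusted p = 0.084).

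RNA polymerase I transcribes the rRNA precursor. Of 15 genes of the enzyme and its initiation factors 3 were called higher and 0 lower, with a median of 0.16, beside 6.65% higher and 8.27% lower over all genes tested. TAF1D, POLR1E and POLR1D had log2 fold changes of 0.49, 0.47 and 0.45 (edgeR, adjusted p = 0.0044, 0.007 and 0.0096). Again 0 were lower at an unadjusted p under 0.05 (edgeR), by DESeq2's Wald test or by limma on FPKM, and 1 was on rescaled FPKM. Of 22 regulators of TOP mRNAs and growth, 0 were called higher and 1 lower, a share of lower calls under that of all genes, with a median of 0.01. At an unadjusted p under 0.05 (edgeR) 1 was higher, DESeq2's Wald test and both limma fits called 0 higher, and without siPSF replicate 3 edgeR called 1, MDM2. MTOR, the kinase itself, stood at 127, 136 and 137 CPM with siControl and 103, 116 and 109 CPM with siPSF, without overlap, and fell (log2 fold change -0.28; edgeR, adjusted p = 0.035). The call was lost without siControl replicate 2, siControl replicate 3 or siPSF replicate 1 (edgeR, adjusted p = 0.11, 0.069 and 0.16), and between 0 and 2 of the 22 were called lower in the 6 fits without 1 library. LARP1, which binds TOP motifs, had 369, 370.4 and 391 CPM under siControl and 383, 404 and 429 CPM under siPSF, with overlapping groups (log2 fold change 0.10; edgeR, adjusted p = 0.43).

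**Figure D5:**
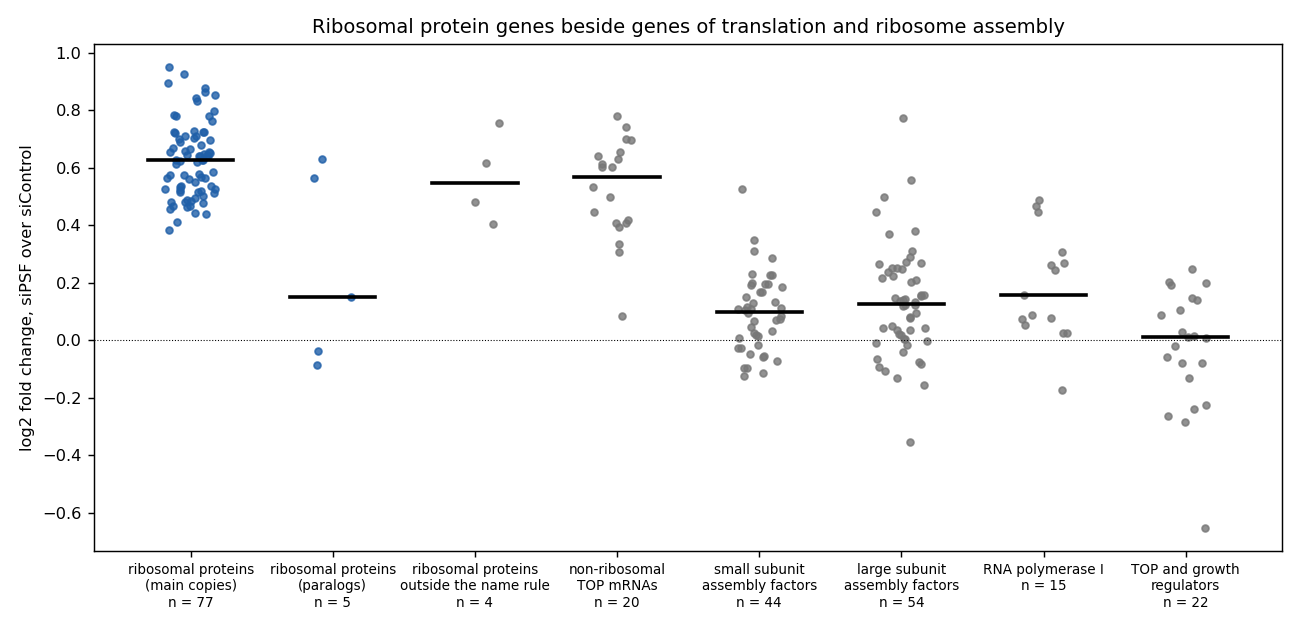
Log2 fold changes of single genes in the ribosomal protein genes and in the 6 lists of related genes. Main copies of the ribosomal protein genes centre at 0.63, their paralogs at 0.15 and the ribosomal proteins outside the name rule at 0.55. Non-ribosomal TOP mRNAs centre at 0.57, and assembly factors, RNA polymerase I genes and regulators between 0.01 and 0.16.

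The main copies kept their direction under other scalings of the libraries. With DESeq2's size factors, with TMM factors computed without the 82 genes and with DESeq2's Wald test, 79 genes were called higher each time. Rescaling FPKM to equal sums per library moved the median of all genes to -0.16 on the log2 scale. There the ribosomal protein genes had a median of 0.43, which is 0.59 above that of all genes, where the difference in the counts was 0.62. All 77 main copies kept a positive log2 fold change in each of the 14 other fits, while RPL26L1 turned to -0.03 on rescaled FPKM. Some main copies lost their call on FPKM. RPL37 was not called with limma on FPKM, and neither RPL35 nor RPL37 was called on rescaled FPKM.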

How the data were processed

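Poly(A) RNA libraries of SH-SY5Y cells were sequenced, 3 with siControl and 3 with siPSF, and groups were taken from the sample titles. The authors deposited 1 table, in which each gene has a read count and an FPKM value for every library. The counts are not normalized, and the FPKM values were divided by exon length and mapped reads. For the same table, the methods of the study name rRNA removal with Bowtie, mapping with TopHat to hg38 and counting on RefSeq mRNAs, and the submitters' processing notes name Trimmomatic, HISAT2 2.1.0 and StringTie 2.1.3b with GRCh38. Which of these made the values, and whether strand was used, is not given in the sources used here, so overlapping antisense pairs of genes have uncertain counts.

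No gene in the table has a count below 1, so genes without a read in some library were not analysed here. No per-sample column was left unused. Counts were filtered with filterByExpr, scaled by TMM (factors 0.964 to 1.053) and tested with the quasi-likelihood test of edgeR 4.0.16 in R 4.3.3 over 19694 genes, siPSF against siControl without a block. SE is the log2 fold change divided by the square root of F. The common biological coefficient of variation was 12.6%, and replicate libraries differed by a chi-square of at least 22.61 per degree of freedom, so none were alike within sampling noise. Exonic length was worked out from counts and FPKM. Starts came from RefSeq (GRCh38.p14), with 66 of the 82 genes matched. Paralog ratios were tested with scipy 1.17.1.

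The genes, lists and tests were chosen with earlier results of these data known, and the groups of genes by role after their values were seen. Genes were named where they had 1 of the 12 smallest p, the 2 highest levels per length or the 2 largest or smallest changes of a subunit, belonged to a paralog pair, had a known role or were among the 3 smallest p of a list. Others were named by role or as single exceptions, after their values were seen. A few genes chosen in this way are not reported here by name. Alternatives were leaving out each library, a replicate block, DESeq2 1.42.0 size factors and Wald test, no filter, TMM without these genes, sums with pseudogenes, limma 3.58.1 on log2(FPKM + 0.5) for genes with a mean of at least 0.5, and the same on rescaled FPKM.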

Additional observations from a re-analysis of the deposited data

How the results depend on the processing

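Between 75 and 79 of the 82 ribosomal protein genes were called higher under all 14 other fits, and 75 genes were called in every one of them. At an adjusted p under 0.01 (edgeR) 69 were called. On FPKM rescaled to equal sums, 1 gene was called lower (RPL39L), the median log2 fold change was 0.43, 2 large and 1 small subunit assembly factors were called higher and 5 of each lower, as were 1 RNA polymerase I gene and 7 regulators, and RPL26L1 stood at -0.0253. Over all genes that fit called 463 higher and 3409 lower, against 1310 and 1628 in the counts and 736 and 1782 with limma on FPKM without rescaling. The latter called 2 large subunit assembly factors and 4 regulators lower, and DESeq2's Wald test called 3 regulators lower. The log2 ratio of the ribosomal protein share was 0.405 from FPKM sums and 0.541 from counts. The causes were not tested.

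Without 1 library, the log2 ratio of RPL22L1 to RPL22 ranged from -0.18 to 0.257, that of RPS27L to RPS27 from -0.267 to 0.153, and that of RPL36AL to RPL36A from -0.0766 to 0.0735 (0.0138 without siControl replicate 2). The log2 fold change of RPL7L1 ranged from -0.144 to 0.14 and was at 0.0541 without siControl replicate 1. The counts ranged from 1 to 2 small subunit assembly factors called higher, from 2 to 8 large ones higher and from 0 to 1 lower, from 0 to 1 regulators higher and from 0 to 2 lower. Over all genes, siControl replicate 2 mattered most, with 572 called higher and 928 lower without it, and siControl replicate 3 gave 732 and 1022, siPSF replicate 1 845 and 1130.

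Same-numbered libraries did not deviate together (correlations of -0.022, 0.056 and 0.056 over genes). Weak correlations over all genes cannot exclude that they shared a culture or a day, which the labels do not say. With a replicate block, 79 ribosomal protein genes were called higher with a median of 0.63, and 4 small and 10 large subunit assembly factors were called higher and 2 regulators lower. For the 49 genes selected by the naming rule under the 14 other fits, 661 results kept direction and call, 21 lost the call, 1 gained it and 3 turned direction. Genes named for other reasons, such as MDM2, MDN1 and RPL35, are not in these numbers. With 3 libraries per group the exact test of the paralog ratios cannot pass the threshold, and no ribosomal protein gene had fewer than 2668 counts in a library.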
